A study of Mus musculus with 6 samples.

Results

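The genes described here are the keratins, the small proline-rich proteins (Sprr) and the late cornified envelope proteins (Lce), measured by RNA sequencing in colon tumours of mice given AOM/DSS. They were taken by symbol from the deposited count tables, which gave 92 of 26214 rows: 55 keratin rows, 16 Sprr rows and 21 Lce rows. Tumours of 3 Trim21 -/- samples, labelled Trim21 knock out, were compared with tumours of 3 Trim21 +/+ samples, labelled WT, and AOM/DSS treatment is shared by both groups. AOM is azoxymethane, a carcinogen, and DSS is dextran sulfate sodium, which injures the colon lining. Age and strain are not stated in the labels, nor whether each sample, called a biological replicate, is a tumour of its own mouse, so p-values measure only the spread between these samples, which may be technical. The protein Trim21 is an E3 ubiquitin ligase and a cytosolic antibody receptor.

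Keratins are the intermediate filament proteins of epithelial cells. A filament is built from pairs of a type I and a type II keratin, so epithelia express them in matched sets. Simple, single-layered epithelia such as the colon lining use Krt8 as the type II partner and Krt18, Krt19 and Krt20 as type I partners. Stratified squamous epithelia such as the skin, oesophagus and anal canal use Krt5 with Krt14 in the basal layer and switch to other pairs, such as Krt4 with Krt13 or Krt1 with Krt10, above it. Sprr, Lce, loricrin and involucrin proteins are cross-linked by transglutaminases into the cornified envelope, the tough shell of the outermost squamous cells. Some Sprr genes are also known to be expressed in the injured or colonised intestine.

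In mm10 coordinates of the GENCODE annotation, 27 keratin genes lie on chromosome 11 between 99232761 and 100269871, which holds the type I cluster, and 27 on chromosome 15 between 101347444 and 102032027, which holds the type II genes and Krt18. The Sprr genes lie on chromosome 3 between 92215799 and 92500493, and the Lce genes next to them between 92620081 and 93019060. Some neighbours in these families are near-identical copies, and how reads that map to several places were counted is not given in the sources used here.

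Libraries held 17937821 to 19987295 reads in the knockout group and 27085599 to 29742757 in the wild type. Trim21 itself was at 12.1, 18.9 and 12.8 CPM (read counts relative to a library size scaled by TMM factors) in the knockout and 29.7, 20.3 and 19.5 CPM in the wild type. The groups did not overlap, with a log2 fold change of −0.67 (SE 0.24, edgeR adjusted p = 0.418). Columnar epithelium markers were all 10 detected and summed to 6011 to 6588 CPM per knockout library and 5240 to 5920 CPM per wild-type library. By log2 fold change 8 of the 10 were higher in the knockout, among them Vil1 (0.11). Epcam (−0.05) and Cdh1 (−0.03) were slightly lower. The columnar sum averaged 6220 CPM per knockout library against 5669 CPM per wild-type library. Most of that gap came from 1 gene, Lgals4, which averaged 1369 CPM against 905 CPM. All 10 smooth muscle markers were detected, with a sum of 967 to 1579 CPM in knockout tumours and 358 to 885 CPM in wild-type ones, and the sum of the 10 mature colonocyte markers was 569 to 801 CPM against 144 to 408 CPM. All 3 sums were higher in every knockout library than in any wild-type library, the columnar one largely through Lgals4. With edgeR, 0 genes of the columnar, smooth muscle and colonocyte lists passed the test, as did 0% of all genes. At an unadjusted p under 0.05 there were 1, 6 and 4 of 10 genes each, beside 10.7% of all genes. DESeq2 called 0, 3 and 3, beside 2.21% of the genes to which it gave an adjusted p. Wild-type replicate 1 was lowest in all 3 sums, and wild-type replicate 3 held nearly all Krt5 and Trp63 reads. The part of these markers in the results below was not tested. In bulk tumour RNA, fewer cells of a type and less RNA per cell cannot be told apart.

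The tumours expressed the simple keratins at high level, a group of stratified keratins at low level, Sprr2a at very high level and little other Sprr or Lce RNA. Of the 92 rows, 42 had 0 reads in all 6 libraries. Sprr2a1 and Sprr2a2 had identical counts and are treated as 1 gene, written Sprr2a1. After the filter on low counts, 27 members were tested, and 22 of these had a mean of at least 1 CPM in a group. With edgeR's quasi-likelihood test and Benjamini-Hochberg adjustment over 16281 genes, 0 of the 27 passed an adjusted p of 0.05, as did 0% of all genes (0 of 16281). The smallest adjusted p of a member was 0.333, for Krt4. At an unadjusted p under 0.05 there were 0 members higher in the knockout, beside 6.63% of all genes, and 2 lower, which is 7.41% of the members beside 4.12% of all genes. The 2 were Krt4 and Krt17. limma-voom called 0 members and 0% of all genes, and DESeq2 called 1 member, Krt4, and 2.21% of the genes to which it gave an adjusted p. The knockout and wild-type values did not overlap for 1 member that was higher in the knockout, Krt19, and for 3 that were lower, Krt4, Krt7 and Krt17. Together these are 14.8% of the tested members, beside 17.9% of all genes (9.43% higher and 8.47% lower).

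**Figure D1:**
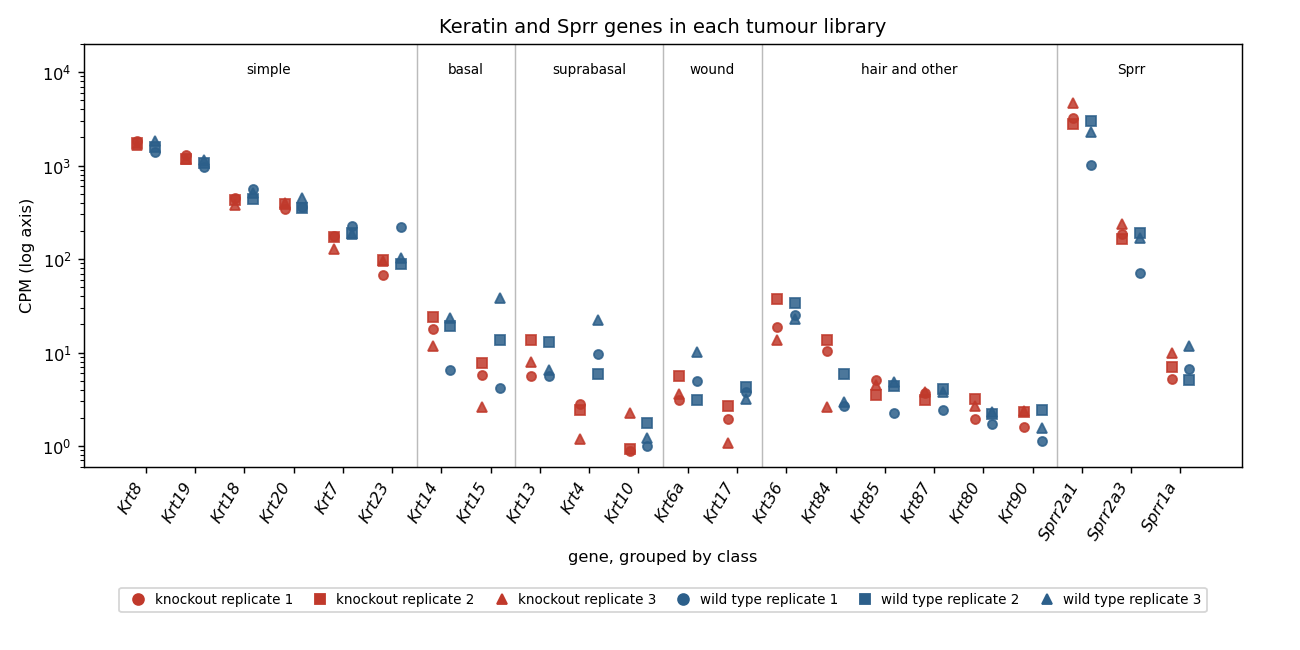
CPM on a log axis for the 22 members with a mean of at least 1 CPM in a group, with 1 symbol per library, grouped by keratin class or Sprr. The knockout points of Krt4 lie at 1.19 to 2.83 CPM, under all wild-type points, while those of most other genes overlap the wild type.

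Simple keratins made up nearly all keratin RNA in both genotypes. Their summed level was 4019 ± 160 CPM in knockout tumours and 3876 ± 279 CPM in wild-type ones (mean and SD over 3 libraries), and they were 97.8% ± 0.725 and 97.1% ± 0.806 of the summed CPM of all keratins. Of the 6 genes, 2 had a positive and 4 a negative log2 fold change, with a median of −0.16 beside −0.01 over all genes tested. Krt7 and Krt23, which are less general in the colon, had the 2 lowest log2 fold changes of the 6, −0.33 and −0.67. Leaving them out must therefore raise the median, which was then 0.05.

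Krt8, the most abundant type II keratin here, had the highest level per length of any keratin, 854 CPM per kb of annotated exon averaged over the 6 libraries. It measured 1851, 1750.0 and 1672 CPM in knockout replicates 1 to 3 and 1387, 1562 and 1810.1 CPM in wild-type replicates 1 to 3, with the groups overlapping through wild-type replicate 3 (log2 fold change 0.15, SE 0.12, edgeR adjusted p = 0.679, and 0.060 without wild-type replicate 1). In the annotated transcripts, 29.7% of the stretches of 50 bases in Krt8 also occur in another gene, mainly Krt8-ps. The level of Krt8 thus depends on how such reads were counted. Krt19, a type I partner with an unusually short tail, measured 1290.5, 1184 and 1187 CPM in knockout tumours and 967, 1063 and 1146 CPM in wild-type ones. Every knockout value of Krt19 lay above every wild-type value, but the gap was narrow: the log2 fold change was 0.21 (SE 0.10, edgeR adjusted p = 0.513). Krt18, the classic partner of Krt8, measured 453, 427 and 383 CPM in knockout tumours and 568, 442 and 506 CPM in wild-type ones. Its groups overlapped, with knockout replicate 1 above wild-type replicate 2, and its log2 fold change was −0.26 (SE 0.12, edgeR adjusted p = 0.485).

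Krt20, a keratin of differentiated intestinal cells, overlapped between the groups, at 340.1, 386 and 396 CPM in knockout tumours and 363, 354 and 447 CPM in wild-type ones (log2 fold change −0.05, SE 0.12, edgeR adjusted p = 0.89). Its highest library was wild-type replicate 3 and its lowest knockout replicate 1, whereas the summed mature colonocyte markers were lowest in wild-type replicate 1. Krt7, a keratin of ducts and glands, measured 177, 173 and 127 CPM in knockout libraries and 224, 190.0 and 186 CPM in the wild type. All knockout values of Krt7 were below all wild-type values, with a log2 fold change of −0.33 and an SE of 0.15 (edgeR adjusted p = 0.477).

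Krt23, a type I keratin, differed mainly through 1 tumour. It measured 67.4, 96.6 and 94.9 CPM in knockout libraries and 221, 87.9 and 103 CPM in the wild type, so wild-type replicate 1 stood far above the other 5 libraries, which overlapped. The log2 fold change was −0.67 (SE 0.35, edgeR adjusted p = 0.524), and −0.15 without wild-type replicate 1. That library also had the lowest sums of the smooth muscle and mature colonocyte markers, 358 and 144 CPM, and the part of this in the Krt23 value was not tested.

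In the makeup of the simple keratins, Krt8 took 43.7% ± 0.502 of the simple keratin reads in the knockout and 40.8% ± 3.21 in the wild type, and Krt19 took 30.4% ± 0.778 and 27.3% ± 1.41. Krt18 took 10.5% ± 0.487 and 13.1% ± 1.86 (SD, n = 3 each). The shares of 4 genes did not overlap between the groups: those of Krt8 and Krt19 were higher in every knockout library and those of Krt18 and Krt7 lower. This was seen after the values were known, was not tested and has no counterpart over all genes. In CPM, the groups of Krt8 and Krt18 overlapped. For Krt8 the gap was narrow, from 43.1% at most in the wild type to 43.3% at least in the knockout. For Krt18 the highest knockout share was 10.8% and the lowest wild-type share 12.0%. The shares of 1 library sum to all reads of the 6 genes, so they are not independent of each other. The 95% Wilson interval of any of these shares in a single library is at most ±0.359 percentage points, which covers counting error only. Between libraries of 1 group, the coefficient of variation of the CPM was 4.96% to 18.9% in the knockout for the 6 simple keratins. In the wild type it was 8.45% to 13.4% for Krt7, Krt8, Krt18, Krt19 and Krt20, and 53.2% for Krt23. The 7 tested squamous keratins with a mean of at least 1 CPM varied by 31.8% to 57.5% in the knockout and by 14.6% to 94.5% in the wild type, so the ranges overlapped in the wild type.

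Per length of annotated exon, type I keratins exceeded type II keratins in every library. The summed type I level was 1235 ± 34.4 CPM per kb in the knockout and 1257 ± 77.9 in the wild type, and the summed type II level was 930 ± 50.6 and 853 ± 113 CPM per kb. The ratio was 1.29, 1.34 and 1.36 in the knockout and 1.70, 1.40 and 1.36 in the wild type, with wild-type replicate 1 highest. These sums leave out Krt85, whose symbol was not matched in the annotation.

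**Figure D2:**
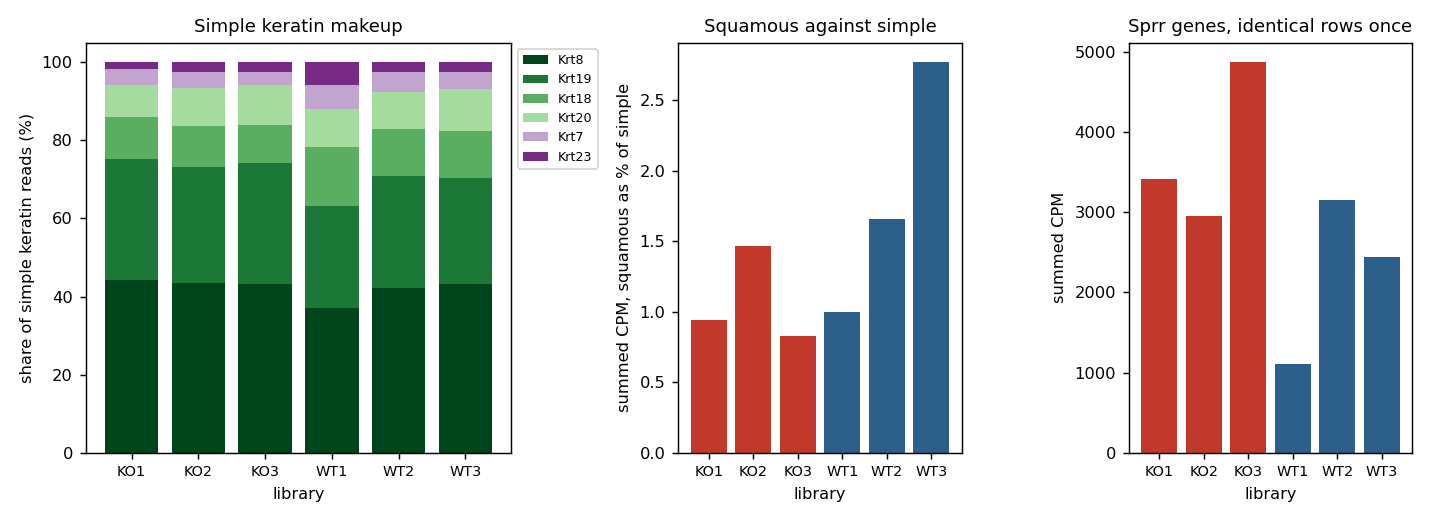
Left, percent of simple keratin reads taken by each of 6 genes in each library, where wild-type replicate 1 has the widest Krt23 band (5.93%). Middle, summed CPM of squamous keratins as percent of that of simple keratins, highest in wild-type replicate 3 at 2.77%, and right, summed CPM of Sprr genes, lowest in wild-type replicate 1 at 1106 CPM.

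Squamous keratins were present at a low level in all 6 tumours. Their summed CPM was 0.938%, 1.46% and 0.828% of that of the simple keratins in the knockout and 0.996%, 1.65% and 2.77% in the wild type. The highest value, in wild-type replicate 3, stood apart, and the other 5 libraries overlapped between the groups. Of 18 squamous keratin rows, 14 had reads and 9 were tested, 3 with a positive and 6 with a negative log2 fold change. The median was −0.57, beside −0.01 over all genes tested, and −0.03 without wild-type replicate 3. In that last fit the low-count filter was applied again, and 26 rather than 27 keratin, Sprr and Lce members were tested.

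Among the basal keratins, Krt14 was detected without its partner Krt5 in most libraries. Krt14 had 356, 435 and 230 reads in the knockout and 194, 565 and 625 in the wild type, or 17.6, 23.9 and 11.9 CPM and 6.50, 19.1 and 23.2 CPM. Krt5 had 0 reads in all 3 knockout libraries and in wild-type replicate 2, 3 reads in wild-type replicate 1 and 223 reads, or 8.26 CPM, in wild-type replicate 3. A count of 0 allows up to 3 reads, or 0.149 to 0.165 CPM in the knockout libraries, for counting error only. Krt5 did not pass the filter on low counts and was singled out after its values were seen, since it is the type II partner of Krt14. In the annotated transcripts, 13.9% of the stretches of 50 bases in Krt14 also occur in another gene, mainly Krt16 and Krt17, so most of its sequence is its own. The log2 fold change of Krt14 was 0.13 (SE 0.46, edgeR adjusted p = 0.929), and it was −0.25 without wild-type replicate 1 and 0.47 without wild-type replicate 3.

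Some other genes of squamous epithelium were also highest in wild-type replicate 3, and some were not. Trp63, a key transcription factor of stratified epithelium, had 175 reads there, 2 in wild-type replicate 1 and 0 in the other 4 libraries. The factors Tfap2c and Grhl1 were at 2.70 and 13.8 CPM in that library, against 0 to 0.101 CPM and 3.00 to 4.22 CPM elsewhere. These 3 regulators were picked after their values were seen. In the same library Zfp750, another squamous regulator, was at 20.0 CPM, below the other 5, and the desmosomal cadherin gene Dsc3 was at 1.56 CPM, also the lowest of the 6. Its relative Dsg3 was at 6.63 CPM there, within the range of 2.92 to 13.7 CPM elsewhere. Of the 10 squamous epithelium markers, 7 were detected and Calml3, Dsg1a and Krtdap were at 0. Serpinb5 and Sfn, which colon epithelium also expresses, were at 77.3 CPM or more in every library. The other 8 summed to 4.80 to 16.8 CPM in knockout libraries and to 10.9, 10.5 and 19.6 CPM in the wild type. Without Trp63 the sum in wild-type replicate 3 was 13.1 CPM, below knockout replicate 2 at 16.8 CPM. Mesothelial cells also carry simple keratins. The 7 mesothelium markers summed to 9.56 to 15.1 CPM in knockout libraries and 8.81 to 14.8 CPM in the wild type. Most of that sum was Msln, Gpm6a and Upk1b, and each other marker was at most 0.827 CPM in any library.

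Krt15, a type I keratin of basal cells, was at 5.75, 7.74 and 2.64 CPM in knockout libraries and at 4.12, 13.7 and 38.4 CPM in the wild type. The groups overlapped through wild-type replicate 1, and replicate 3 was the highest library. The log2 fold change was −1.80 (SE 0.77, edgeR adjusted p = 0.466), and −0.73 without wild-type replicate 3.

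Krt4, the type II keratin of non-cornified squamous layers, showed the largest difference of any tested member. It measured 2.83, 2.41 and 1.19 CPM in knockout libraries and 9.62, 5.85 and 22.5 CPM in the wild type, from 23 to 57 reads and 173 to 608 reads. All knockout values were below all wild-type values, with the highest in wild-type replicate 3. The log2 fold change was −2.56 with an SE of 0.56, and the gene did not pass edgeR's test (adjusted p = 0.333), although DESeq2 called it (adjusted p = 0.000379). Without wild-type replicate 3 the edgeR log2 fold change was −1.85 (adjusted p = 0.429), and the remaining wild-type libraries still lay above the knockout. The values of its usual partner Krt13 overlapped between the groups. Krt13 measured 5.65, 13.7 and 8.01 CPM in knockout libraries and 5.63, 13.0 and 6.44 CPM in the wild type (log2 fold change 0.12, SE 0.43, edgeR adjusted p = 0.928).

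Krt10, a keratin of cornifying layers, was near 1 CPM in all tumours, with 0.892 to 2.27 CPM in knockout libraries and 1.01 to 1.76 CPM in the wild type. Its partner Krt1 had 2 reads in knockout replicate 2, 2 in wild-type replicate 3 and 0 in the other 4 libraries. Krt2, Krt9, Krt24 and Krt77 had 0 reads throughout. Krt12, a keratin of the cornea, was tested at 0.0676 to 0.771 CPM.

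The keratins that skin induces on wounding were low. Krt17 measured 1.93, 2.69 and 1.09 CPM in knockout libraries and 3.75, 4.23 and 3.15 CPM in the wild type, with no overlap. Its log2 fold change was −0.96 (SE 0.38, edgeR adjusted p = 0.437), and −1.07 without wild-type replicate 3. Krt6a measured 3.12, 5.60 and 3.62 CPM in knockout libraries and 4.99, 3.08 and 10.2 CPM in the wild type, and its log2 fold change of −0.57 was 0.03 without wild-type replicate 3. Of the stretches of 50 bases in Krt6a, 57.2% occur in another gene, mainly Krt6b, so its value is uncertain. Krt6b was at 0.169 to 1.41 CPM, and Krt16, the partner of Krt6a, had at most 13 reads in a library and was not tested.

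Within the squamous keratins, type I genes exceeded type II genes per length. The ratio of the summed CPM per kb was 6.78, 7.25 and 6.36 in the knockout and 1.80, 7.08 and 2.16 in the wild type. Wild-type replicates 1 and 3, the libraries with the highest Krt4, had the lower ratios.

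**Figure D3:**
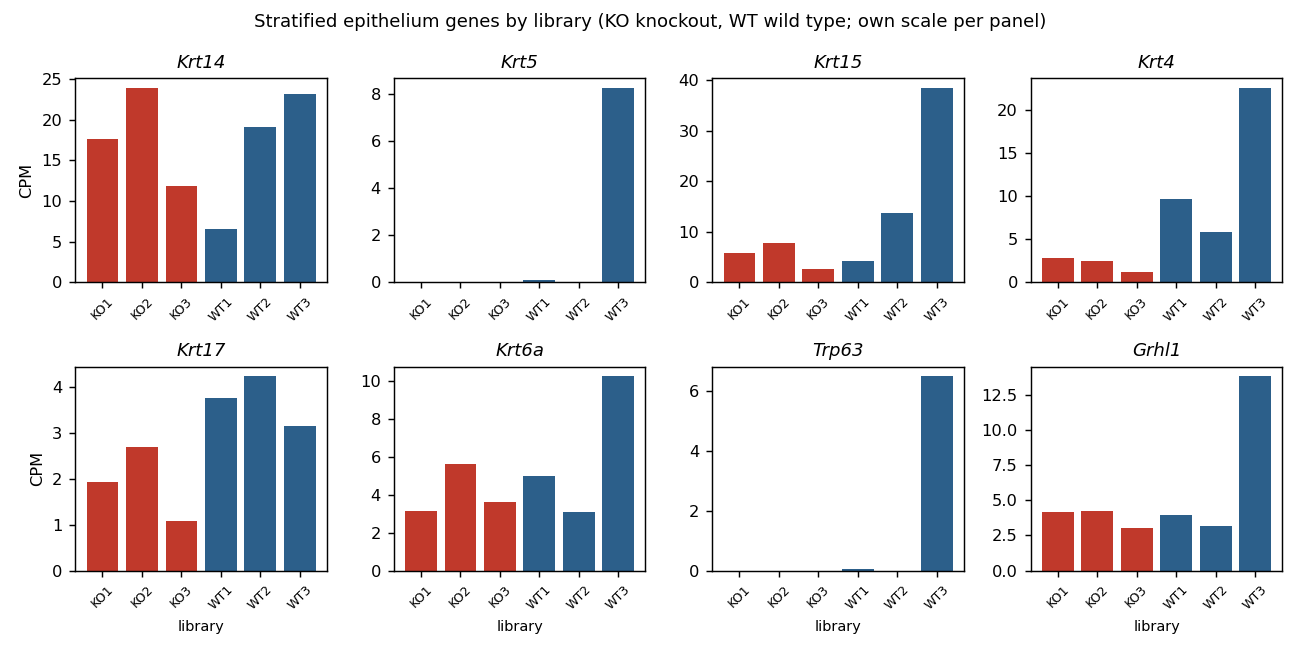
CPM of 6 squamous keratins and of the transcription factors Trp63 and Grhl1 in each library, each panel on its own scale from 0. Krt5 and Trp63 are seen almost only in wild-type replicate 3 (8.26 and 6.48 CPM), while Krt14 is present in all 6 libraries.

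The class of hair and other keratins held 31 rows, of which 20 had reads and 8 were tested, 7 with a positive and 1 with a negative log2 fold change. Their median was 0.24, and 0 of the 8 had groups that did not overlap, beside 17.9% of all genes. Krt36, a hair keratin, was the most abundant, at 18.8, 37.6 and 13.6 CPM in knockout libraries and 25.0, 33.9 and 23.0 CPM in the wild type. Krt84, another hair keratin, measured 10.3, 13.6 and 2.58 CPM in knockout libraries and 2.65, 5.85 and 2.96 CPM in the wild type. Knockout replicates 1 and 2 were above all wild-type libraries and replicate 3 was below them, and the log2 fold change was 1.20 (SE 0.60, edgeR adjusted p = 0.511). Krt80, Krt85, Krt87 and Krt90 lay between 1.14 and 5.10 CPM in every library, with log2 fold changes of 0.32, 0.18, 0.04 and 0.30. Of the stretches of 50 bases in Krt87, 36.9% occur in another gene. Krt39 and Krt222 were tested at no more than 1.76 CPM, and the log2 fold change of Krt222 was 1.22 with an SE of 0.66.

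Sprr2a was among the most abundant transcripts of these tumours, whereas the neighbouring Sprr2 genes outside Sprr2a gave few reads. By CPM, the Sprr2a1 row ranked 6, 9 and 6 among all rows in the knockout libraries and 54, 9 and 17 in the wild type. Sequences are shown here because the copies differ so widely in level. They are the 250 bases before the RefSeq start of each gene (GRCm38.p6), with matches to the AP-1 motif TGANTCA and the TATA motif TATAAA, searched on both strands, in capitals.
Sprr2a1 (chr3:92215585-92215834, plus strand): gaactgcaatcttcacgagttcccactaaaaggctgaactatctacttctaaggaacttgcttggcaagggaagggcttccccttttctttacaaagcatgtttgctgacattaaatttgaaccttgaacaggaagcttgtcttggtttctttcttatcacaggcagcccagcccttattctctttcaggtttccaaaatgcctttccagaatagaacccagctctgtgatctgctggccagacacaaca
Sprr2a3 (chr3:92285054-92285303, plus strand): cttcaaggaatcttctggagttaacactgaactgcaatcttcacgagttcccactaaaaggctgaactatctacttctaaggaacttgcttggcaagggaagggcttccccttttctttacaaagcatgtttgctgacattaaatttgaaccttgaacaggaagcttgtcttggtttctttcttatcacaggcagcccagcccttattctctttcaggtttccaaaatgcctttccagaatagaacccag
Sprr2b (chr3:92316455-92316704, plus strand): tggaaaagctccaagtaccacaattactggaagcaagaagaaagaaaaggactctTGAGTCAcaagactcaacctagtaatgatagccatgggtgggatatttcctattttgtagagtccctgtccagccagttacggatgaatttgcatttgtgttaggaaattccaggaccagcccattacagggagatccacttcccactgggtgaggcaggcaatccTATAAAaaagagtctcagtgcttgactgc
Sprr1a (chr3:92485882-92486131, minus strand): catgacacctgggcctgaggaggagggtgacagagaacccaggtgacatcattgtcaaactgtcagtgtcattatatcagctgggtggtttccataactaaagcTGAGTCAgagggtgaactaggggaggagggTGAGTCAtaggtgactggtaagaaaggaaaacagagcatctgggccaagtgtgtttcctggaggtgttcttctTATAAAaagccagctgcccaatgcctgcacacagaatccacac

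The window of Sprr2a2 (chr3:92250397-92250646) is the same as that of Sprr2a1 over all 250 bases, and that of Sprr2a3 is the same over 222 aligned bases. RefSeq windows were matched for 70 of the 92 members. Of 14 Sprr windows, 9 hold TGANTCA and 10 hold TATAAA, beside 6.75% and 12.4% of 32851 windows of the same length. The 3 Sprr2a windows hold neither. GENCODE places the start of Sprr2a3 at 92285417 and that of Sprr2a1 at 92215799, at other bases than RefSeq does, so the window depends on the annotation. Such matches describe the letters only.

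Sprr2a1 measured 3221, 2783 and 4624 CPM in knockout tumours and 1027, 2963 and 2259 CPM in wild-type ones. Knockout replicate 3 was highest and wild-type replicate 1 lowest, and the groups overlapped, with wild-type replicate 2 above knockout replicate 2. The means were 3543 ± 961 and 2083 ± 980 CPM (SD, n = 3 each), with a log2 fold change of 0.77 and an SE of 0.38 (edgeR adjusted p = 0.506). Without wild-type replicate 1 the log2 fold change was 0.44, and without wild-type replicate 2 it was 1.11. That first library was also lowest in the mature colonocyte markers, as given above, and their part in the Sprr2a1 value was not tested.

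The reads of the Sprr2a copies cannot be cleanly assigned. Of the stretches of 50 bases in the annotated Sprr2a1 transcript, 92.5% occur in Sprr2a2 and 58.6% in Sprr2a3, and the annotated Sprr2a2 gene, from 92215920 to 92256724, overlaps Sprr2a1. Sprr2a3, which has 61.1% of its stretches in common with another gene, was at 187, 162 and 238 CPM in knockout libraries and at 70.1, 189 and 168 CPM in the wild type. Its log2 fold change was 0.46 (SE 0.35, edgeR adjusted p = 0.646), and 0.13 without wild-type replicate 1. Sprr2a3 made up 5.49%, 5.50% and 4.90% of the summed Sprr2a1 and Sprr2a3 reads in the knockout and 6.39%, 6.01% and 6.92% in the wild type. All knockout shares were below all wild-type shares, and the 95% Wilson interval of each is at most ±0.265 percentage points. The difference in share was seen after the values were known and was not tested.

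Sprr1a, whose protein is a marker of squamous differentiation and of injured tissue, was at 5.20, 7.08 and 9.87 CPM in knockout libraries and 6.60, 5.14 and 11.7 CPM in the wild type. The groups overlapped widely (log2 fold change −0.08, SE 0.37, edgeR adjusted p = 0.946), and the log2 fold change was 0.33 without wild-type replicate 3. Per kb of annotated exon, Sprr1a averaged 9.43 CPM over the 6 libraries, close to Krt14 at 9.68, while Sprr2a1 averaged 937 CPM per kb, above Krt8.

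The other Sprr genes were rare. Sprr2h had 6 to 26 reads per library and was tested, with a log2 fold change of −0.43 and an SE of 0.49. Sprr2b had 0, 2 and 1 reads in the knockout and 39, 12 and 11 in the wild type, and was not tested. That is lower in each knockout library. Of the stretches of 50 bases in Sprr2b, 14.1% also occur in Sprr2a1, whose mean was higher in the knockout, at 3543 against 2083 CPM. The part of shared reads in the Sprr2b counts was not tested. Sprr2d, Sprr2f and Sprr2k had 2, 6 and 6 reads in total, and 7 rows, among them Sprr1b, Sprr3 and Sprr4 of squamous epithelium, had 0 reads in all libraries.

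The Lce genes, which encode envelope proteins of the late cornified layer of skin, were not detectable apart from Lce6a. Of 21 rows, 20 had 0 reads in all libraries, and Lce6a had 2 reads in wild-type replicate 3. A count of 0 allows up to 3 reads per library, or 0.101 to 0.165 CPM.

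**Figure D4:**
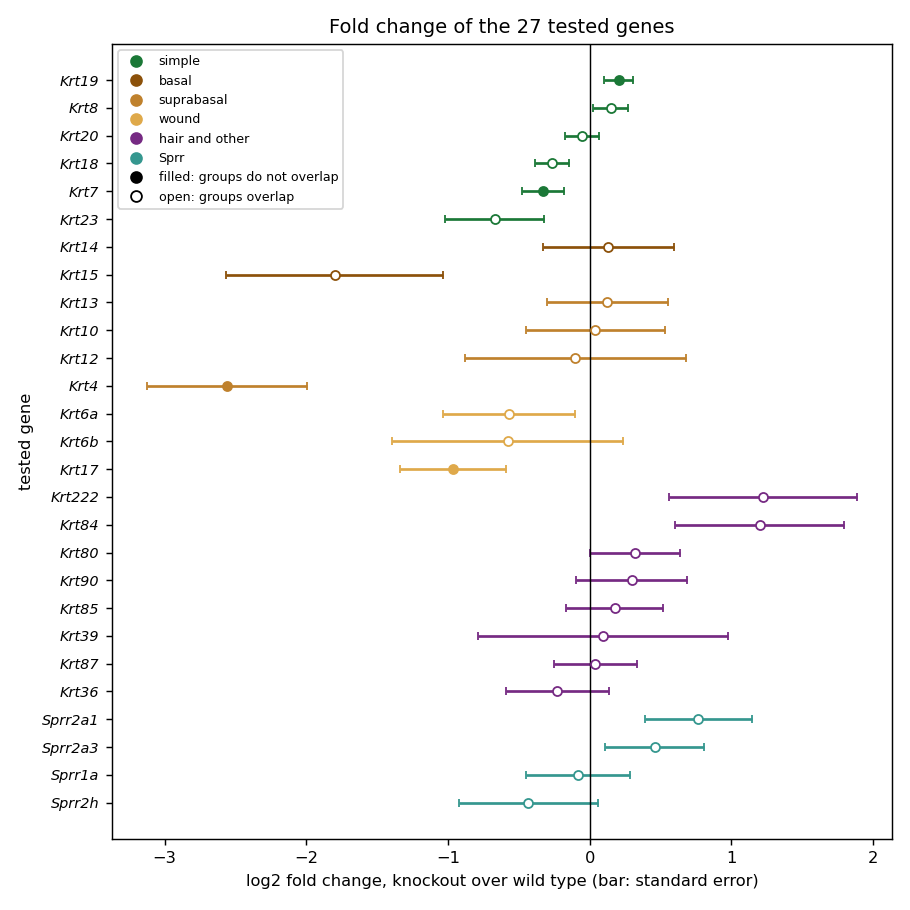
Log2 fold change, knockout over wild type, with its standard error for the 27 tested members, coloured by class, with filled points where the groups do not overlap. Krt4 has the lowest value, at −2.56, and the simple keratins lie between −0.67 and 0.21.

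Among other genes of the cornified envelope, several of cornifying cells were rare. Tgm3, described below, and some genes of wider expression were abundant. Of 25 in that list, 21 had reads and 18 were tested, 7 with a positive and 11 with a negative log2 fold change and a median of −0.05. With edgeR, 0 of the 18 passed and 3 had an unadjusted p under 0.05, beside 0% and 10.7% of all genes. DESeq2 called 1, beside 2.21% of the genes to which it gave an adjusted p. Krtdap, Flg2, Hrnr and Cnfn were at 0, and involucrin (Ivl) and loricrin (Lor) were at most 0.741 and 0.384 CPM. The most abundant were the membrane-binding protein gene Anxa1, at 350.1 ± 40.4 CPM in knockout libraries and 385 ± 49.6 CPM in the wild type, and the calcium-binding protein genes S100a10, S100a11 and S100a14, with log2 fold changes of −0.11, −0.25 and 0.21.

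The gene of this list called by DESeq2 was Tgm3, a transglutaminase that cross-links envelope proteins such as the Sprr family, named here after its values were seen. Tgm3 measured 94.9, 123 and 219 CPM in knockout libraries and 22.9, 52.3 and 46.7 CPM in the wild type, with no overlap. Its log2 fold change was 1.84 (SE 0.40, edgeR adjusted p = 0.331, DESeq2 adjusted p = 0.000157). Without wild-type replicate 1 it was 1.55 (edgeR adjusted p = 0.404), and without knockout replicate 3 it was 1.42 (edgeR adjusted p = 0.719). In both Tgm3 and Sprr2a1, knockout replicate 3 was the highest library and wild-type replicate 1 the lowest. That order is not particular to the pair. The columnar sum (6588 and 5240 CPM) and the mature colonocyte sum (801 and 144 CPM) had the same highest and lowest libraries. The smooth muscle sum was also lowest in wild-type replicate 1, but highest in knockout replicate 1. The part of these markers in the Tgm3 value was not tested.

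Genes that tie keratin filaments to desmosomes or to each other had small fold changes, from −0.17 to 0.58 on the log2 scale. Of 16 in the list, 14 were tested, 7 with a positive and 7 with a negative log2 fold change, with a median of 0.01. In edgeR's test 0 of the 14 passed and 1 had an unadjusted p under 0.05, beside 0% and 10.7% of all genes. DESeq2 called 0, beside 2.21% of the genes to which it gave an adjusted p. The plakin gene Dsp, which anchors keratins at desmosomes, was at 1209 ± 67.4 CPM in knockout tumours and 1164 ± 104 CPM in wild-type ones. Dsg2, Dsc2 and the linker gene Plec had log2 fold changes of −0.07, −0.06 and 0.20.

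Regulators of epithelial differentiation were split evenly, 6 higher and 6 lower of 12 tested, with a median of −0.01. In edgeR's test 0 of the 12 passed and 1 had an unadjusted p under 0.05, beside 0% and 10.7% of all genes. DESeq2 called 1, beside 2.21% of the genes to which it gave an adjusted p. Ehf, Elf3 and Klf5, the most abundant, had log2 fold changes of 0.01, 0.004 and 0.16. Klf4, a factor of both colonocyte and skin barrier differentiation, measured 316, 226 and 281 CPM in knockout libraries and 75.7, 158 and 132 CPM in the wild type. Its log2 fold change was 1.17 (SE 0.26, edgeR adjusted p = 0.334, DESeq2 adjusted p = 0.0021), and without wild-type replicate 1 it was 0.92 (edgeR adjusted p = 0.395).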

How the data were processed

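For each of 6 libraries the authors deposited read counts, whole numbers listed by gene symbol. Per the labels' protocols, ribosome-depleted total RNA was sequenced, and mm10, TopHat2, edgeR and limma are named, with no role, per the submitters' processing notes. How reads were counted, by strand or at several positions, is not given in the sources used here.

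Counts were fitted in R 4.3.3 with edgeR 4.0.16 (TMM scaling, filterByExpr, quasi-likelihood test, group as the only term) on all genes, with two-sided tests and Benjamini-Hochberg adjustment over 16281 genes. DESeq2 1.42.0 and limma-voom (limma 3.58.1) were alternatives, with other scalings, filters, a replicate block and each library left out. The standard error is the log2 fold change over the square root of F. The tests were also run on simulated counts with 200 genes changed. Those counts used the spread that edgeR estimated, so the run cannot show how well the tests hold on these data. Rows of a family with identical counts and at least 10 reads were merged. Members were named where tested and at a mean of at least 1 CPM in a group, and in other lists the most abundant up to 4; genes at 0, Ivl, Lor, Krt5, Trp63, Tfap2c, Grhl1, Zfp750, Dsc3, Dsg3, Tgm3 and the sex-linked genes were named after their values were seen. Exon lengths and shared stretches of 50 bases come from GENCODE M21, which held 91 of the 92 symbols. Members and lists were chosen with earlier results of these data known. Same-numbered libraries are not paired by the labels.

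The lists besides the keratin classes, Sprr and Lce were other cornified envelope genes, keratin and desmosome linkers, squamous regulators, and markers of squamous epithelium, columnar epithelium, mesothelium, smooth muscle and mature colonocytes.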

Additional observations from a re-analysis of the deposited data

How the results depend on the processing

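At 17937821 to 29742757 reads a library, members under 1 CPM are the least precise. The edgeR count of genes called was 0 in all edgeR settings run except without wild-type replicate 3, where it was 1 (range 0 to 1). That gene was the Y-linked Eif2s3y, at 59.9 to 66.5 CPM in the knockout and 7.94, 5.65 and 55.9 CPM in the wild type. The Y-linked Ddx3y (91.7 to 129 CPM), Kdm5d (44.9 to 55.1 CPM) and Uty (36.1 to 56.8 CPM) were expressed in all 6 libraries, and Xist was at 0.219 to 3.96 CPM. DESeq2 called 337 genes and 1 member, Krt4 (log2 fold change −2.56, adjusted p = 0.000379). With edgeR the adjusted p of Krt4 was 0.333, and 0.163 to 0.719 with single libraries left out; DESeq2 was not run with libraries left out. No other setting run called a member.

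The median of the squamous keratins, −0.57, moved to −0.11 with limma-voom and to −0.031 without the wound keratins, and lay between −0.86 and −0.028 with single libraries left out. The Sprr median, 0.19, was −0.24 with no low-count filter, where rarer genes enter. It lay between −0.35 and 0.46 with single libraries left out. Negative values came without knockout replicate 2, knockout replicate 3 or wild-type replicate 1. The low-count filter was applied again in each fit with a library left out, and 26 to 31 members were tested, so the genes behind a median can change. In these fits Sprr2a1 stayed positive, at 0.44 to 1.11, as did Sprr2a3, at 0.13 to 0.72. The simple keratin median was −0.16, 0.048 without Krt7 and Krt23, which had the lowest values of that list, and −0.23 to −0.10 with single libraries left out.

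With the replicate number as a block, 0 genes and 0 members were called, and the medians of simple, squamous and Sprr genes were −0.15, −0.27 and 0.26. At an unadjusted p under 0.05 there were 1293 genes and 3 members, against 1750 and 2 without it. The correlation of same-numbered libraries' deviations was −0.147, −0.175 and −0.073, and no library correlated best with its own number. With 3 libraries a group, this cannot settle whether same-numbered libraries shared a batch, which the labels do not state. Among the 22 members with at least 1 CPM, the only sign change under the block was Krt10, at −0.050, which was −0.052 with limma-voom. Other sign changes came with single libraries left out: Krt10 ranged from −0.54 to 0.29, Krt13 from −0.30 to 0.59, Krt14 from −0.25 to 0.47, Krt20 from −0.11 to 0.061, Krt36 from −0.76 to 0.047, Krt6a from −0.89 to 0.026, Krt85 from −0.092 to 0.38, Krt87 from −0.16 to 0.18 and Sprr1a from −0.35 to 0.33. Of the rarer members, Krt12 (−0.10) was 0.45 with limma-voom, 0.19 under the block, 0.48 without wild-type replicate 1 and 0.045 without replicate 3, and Krt39 (0.09) was −0.40 and −0.073 without knockout replicates 2 and 3 and −0.37 without wild-type replicate 3. The cause was not tested.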
